A study of Homo sapiens with 9 samples.

Results

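The transcriptomes of ALL-SIL cells carrying one or the other *PHF6* siRNA were compared directly with each other. The comparison took the 3 arrays with the treatment label PHF6 siRNA2 and the 3 arrays with the label PHF6 siRNA1, 6 of the 9 arrays of the series, and paired them by the replicate number in their titles. The 3 arrays of the control siRNA entered no test and are given as the background level. All cells were ALL-SIL, an established T cell acute lymphoblastic leukemia (T-ALL) line, grown in serum-containing RPMI. All had been electroporated, with PHF6 siRNA1, with PHF6 siRNA2 or, in the background samples, with a control siRNA, and were harvested 96 h later by the sample, time and treatment labels, whereas the free-text descriptions give 72 h. The methods of the study name a single siRNA and a pooled siRNA reagent against *PHF6*, and the labels do not tell which of these is siRNA1. Transient knockdown in 1 cell line is the limit of the model.

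PHF6 is a zinc finger protein of the nucleus and nucleolus that is lost by mutation in part of T-ALL and that binds the chromatin remodelling complex NuRD. An siRNA is a short RNA duplex of which 1 strand is loaded onto an Argonaute protein and leads it to messenger RNAs that match it. Different siRNAs against the same gene are directed at that target, and each can also lower partly matching transcripts. A direct comparison of both shows which transcripts were at another level under one reagent than under the other.

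Each array carried 57176 different non-control probes, of which 23042 were for long non-coding RNAs (lncRNAs). Between 29694 and 33751 of them were well above background on each of the 6 arrays, and between 30221 and 32627 on the control arrays. The test covered the 32796 probes that were well above background on at least 3 of the 6 arrays, 8781 of them lncRNA probes, and 14495 genes with a symbol. The values were the deposited normalized log2 values, so that a difference of 1 is a 2-fold difference. Of the 24 T cell receptor and surface genes looked at, 22 could be tested in these cells. Other cell types had 12 markers listed each. Of these, 6 B lineage, 8 myeloid, 8 erythroid and megakaryocyte, 7 NK cell and 6 stroma and epithelium genes could be tested.

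*PHF6*, the gene both reagents target, was measured by 1 probe. Its normalized log2 value was 9.43, 9.73 and 9.13 in the siRNA1 arrays of replicates 1, 2 and 3 and 9.23, 9.31 and 9.16 in the siRNA2 arrays. The control arrays read 11.08, 11.16 and 10.88, so that all 6 knockdown arrays lay below all 3 control arrays. The knockdown groups overlapped with each other. In bulk RNA, fewer cells with a transcript and less of it per cell cannot be told apart. Within the 3 pairs siRNA2 minus siRNA1 was -0.20, -0.42 and 0.029. On average it was -0.20 ± 0.11 (SE, n = 3 pairs), with a 95% confidence interval of -0.44 to 0.052 (limma, adjusted p = 0.494). All SEs and intervals given here are limma's moderated ones, drawn toward the variance of all probes. They do not measure the spread of the 3 pairs alone. An exact two-sided permutation test of the 6 arrays gave p = 0.4 and an exact sign flip within the 3 pairs p = 0.5, where 0.1 and 0.25 are the smallest values these designs can give.

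Across all probes the reagents differed by little. The median absolute difference between siRNA2 and siRNA1 was 0.146, 0.139 and 0.129 log2 units in pairs 1, 2 and 3. Between arrays of the same siRNA it was larger, from 0.197 to 0.240 for siRNA1 and from 0.179 to 0.261 for siRNA2. The arrays of one replicate number thus resembled each other more than the arrays of one reagent did. Replicates 1 and 2 of every group had been hybridized on one slide and replicate 3 on another, so slide goes with the replicate number and is removed with it by the pairing.

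The differences themselves repeated weakly from pair to pair. Across the 32796 probes Pearson's r between the differences was 0.32 for pairs 1 and 3, 0.17 for pairs 1 and 2 and 0.13 for pairs 2 and 3. Probes are not independent replicates, and no p is given for these values. The sign was the same in 3 of 3 pairs for 11818 probes, 36% of those tested. With siRNA2 1005 probes (3.06%) lay above, and 1133 (3.45%) below, all siRNA1 arrays without overlap. For a single probe, full separation gives an exact two-sided permutation p of 0.1. The same sign in 3 pairs gives a sign-flip p of 0.25, so neither marks a probe as different by itself. In the plot of one pair against another most probes form a cloud around 0 and a few lie far out on the diagonal.

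**Figure D1:**
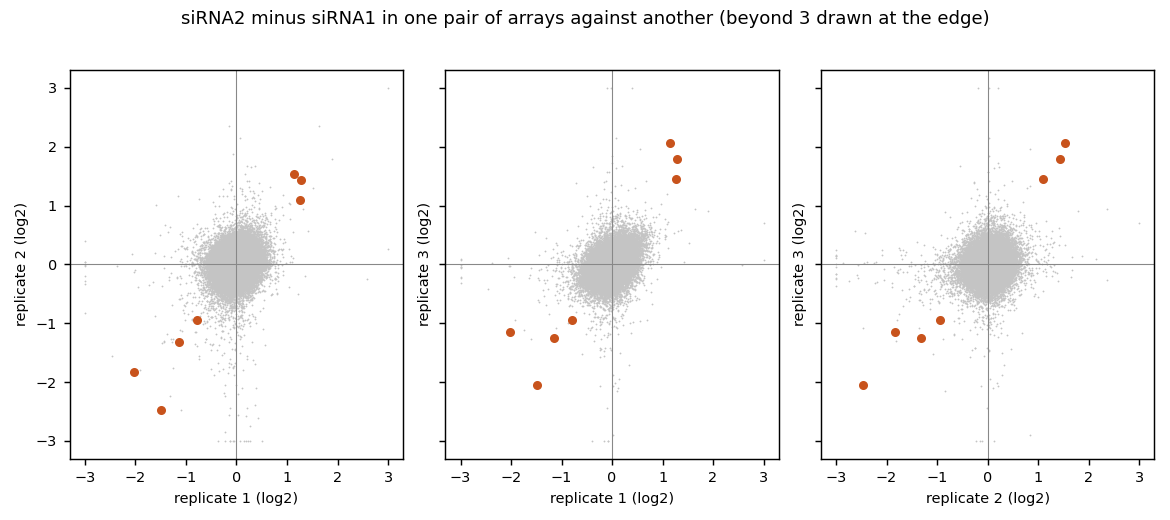
Log2 difference siRNA2 minus siRNA1 of each of the 32796 probes in one replicate pair (horizontal) against another pair (vertical), with differences beyond 3 log2 units drawn at the edge of the panel. Orange points are the 7 probes with an adjusted p under 0.05, which lie in the same quadrant in all 3 panels, and points along an axis are probes that differed in 1 pair.

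limma with the replicate number as a block called 7 probes at an adjusted p under 0.05 (0.0213% of 32796), 3 higher (0.00915%) and 4 lower (0.0122%) with siRNA2. At an unadjusted p under 0.05 it found 4014 (12.2%), 2210 higher (6.74%) and 1804 lower (5.5%). Of the 7, 3 were for named protein-coding genes, 3 for lncRNAs and 1 for a transcript without a symbol in the gene table. The probes for NM_178569 and ENST00000422403 entered the test only through the siRNA1 arrays, where they were high. The number called rests on the setting. It was 0 without the replicate block, under either other normalization and without the filter on dim probes, and leaving out the replicate 1 pair gave 22, the replicate 2 pair 0 and the replicate 3 pair 156. The last is also the value within the first slide, and the other slide holds 1 pair.

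Higher with siRNA2 were *SCN3A* and the lncRNAs TCONS_00002202 and ENST00000511677. *SCN3A*, which encodes the pore-forming subunit of a voltage-gated sodium channel of neurons, read 6.74, 6.90 and 7.46 with siRNA1 and 7.89, 8.43 and 9.53 with siRNA2. Every siRNA2 array was thus above every siRNA1 array, and the control arrays (6.85, 6.99 and 7.77) lay next to siRNA1. *SCN3A* rose by 1.14, 1.53 and 2.07 in the pairs. The mean was 1.58 ± 0.16 (moderated SE, n = 3 pairs), a 2.99-fold difference (limma, adjusted p = 0.0438).

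The lncRNA TCONS_00002202, a transcript of an RNA-seq assembly, read 5.22, 5.51 and 5.27 with siRNA1 and 6.50, 6.95 and 7.06 with siRNA2. Here it was siRNA1 that stood apart, since the control arrays at 6.72, 7.21 and 6.80 overlapped with siRNA2. The difference was 1.50 ± 0.11 (SE, n = 3 pairs; adjusted p = 0.0156). The lncRNA ENST00000511677 (also TCONS_00019099) had the same order, with 5.36, 5.77 and 5.43 under siRNA1, 6.61, 6.87 and 6.87 under siRNA2 and 6.62, 7.03 and 6.65 under the control. It rose by 1.26 ± 0.10 (SE, n = 3 pairs; adjusted p = 0.0156).

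Lower with siRNA2 were *ECEL1*, *MROH7*, the transcript NM_178569 and the lncRNA ENST00000422403. *ECEL1*, a membrane-bound metalloprotease of the neprilysin family that is known from the nervous system, read 6.56, 6.74 and 7.34 with siRNA1 and 5.42, 5.42 and 6.09 with siRNA2. The control arrays read 5.39, 5.78 and 5.86 and overlapped with siRNA2. *ECEL1* fell by 1.24 on the log2 scale (SE 0.09, n = 3 pairs), by nearly the same amount in each pair (-1.14, -1.32 and -1.25), with the lowest p of all probes (adjusted p = 0.0156).

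*MROH7*, which encodes a HEAT repeat protein of little known function, read 9.54, 9.67 and 8.93 with siRNA1 and 7.52, 7.84 and 7.79 with siRNA2. The control arrays, at 8.37, 7.91 and 8.23, lay between both reagents and nearer to siRNA2. The difference was -1.67 ± 0.16 (SE, n = 3 pairs; adjusted p = 0.0397), or 3.17-fold lower with siRNA2. Beside *MROH7* in the RefSeq annotation stands *TTC4*, with which it forms read-through transcripts, and *TTC4* differed by -0.10 ± 0.10 (SE, n = 3 pairs; adjusted p = 0.709).

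The remaining 2 were measured well above background only under siRNA1. The transcript NM_178569 (probe A_23_P331235) read 6.09, 7.40 and 6.25 with siRNA1 and was not well above background on any siRNA2 or control array. It was 3.79-fold lower with siRNA2 when set against the floor defined below, from a measured difference of -2.01 ± 0.17 (SE, n = 3 pairs). The lncRNA ENST00000422403 read 5.36, 5.89 and 6.05 with siRNA1 and was likewise not well above background with siRNA2 or the control. It was 1.79-fold lower with siRNA2 against that floor, from a difference of -0.89 ± 0.09 (SE, n = 3 pairs). Both probes entered the test through the siRNA1 arrays alone, where they were high, so their p-values carry that selection. Without the filter on dim probes their adjusted p was 0.089 and 0.221. Both folds set the mean over the siRNA1 arrays against a floor. On each siRNA2 array the floor was the lowest value among probes well above background, or the probe's own where that was higher. A probe can read above the lowest such value without being well above background. ENST00000422403 did so on siRNA2 replicate 3 (5.11 against 4.34), so neither fold is a strict lower bound.

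**Figure D2:**
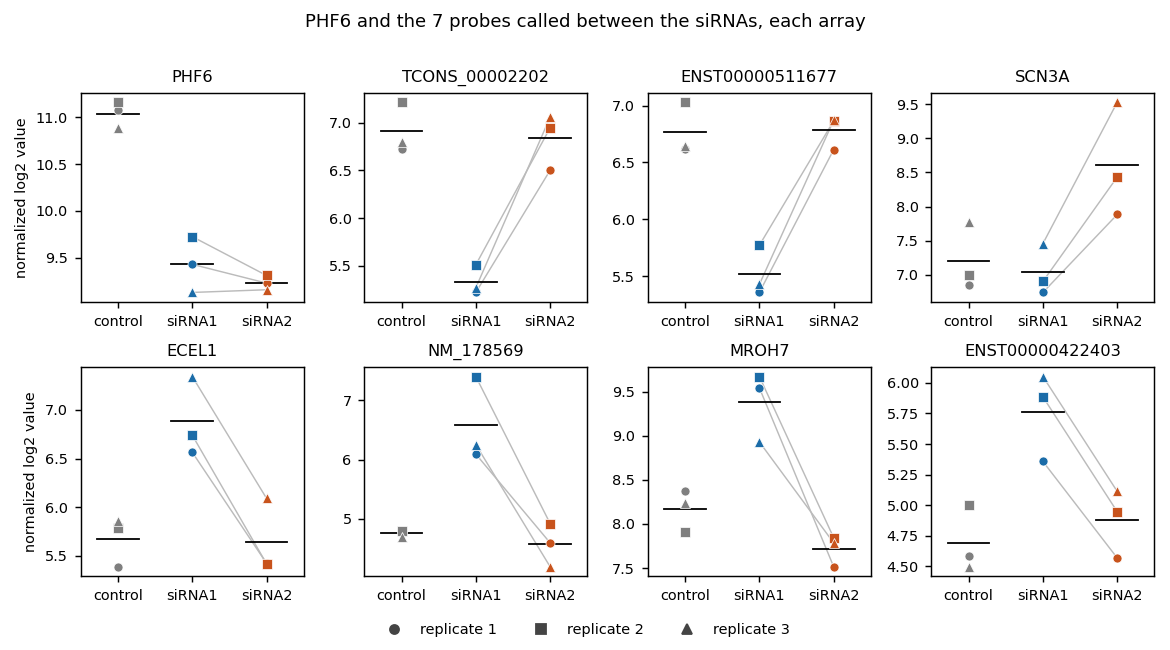
Normalized log2 value (vertical) of *PHF6* and of the 7 probes called between the reagents on each array, with the control siRNA in grey, siRNA1 in blue and siRNA2 in orange. Symbols give the replicate number, grey lines join the arrays of a pair and black bars are group means. *PHF6* is low with both reagents, and *SCN3A* stands out under siRNA2. For *MROH7* the control values lie between both reagents, and the remaining called probes stand out under siRNA1.

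Of the 5 called probes that were well above background under both reagents, 4 had a control mean nearer to siRNA2 than to siRNA1, *SCN3A* being the exception. For the remaining 2, neither the control nor siRNA2 was well above background on any array, so they are left out of this count. Over the 1358 probes without overlap between the reagents and with an unadjusted p under 0.05, 769 had their control mean nearer to siRNA2 and 589 nearer to siRNA1. The called probes were of low to middling brightness, with mean values between 5.32 and 8.55 over the 6 arrays, and the size of their differences changed with the normalization. *ECEL1* differed by -0.81 after normexp correction and quantile normalization and by -1.89 after scaling of the processed signal to its 75th percentile, and *SCN3A* by 1.36 and 1.83. All 7 kept their direction in every alternative in which they were measured.

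**Figure D3:**
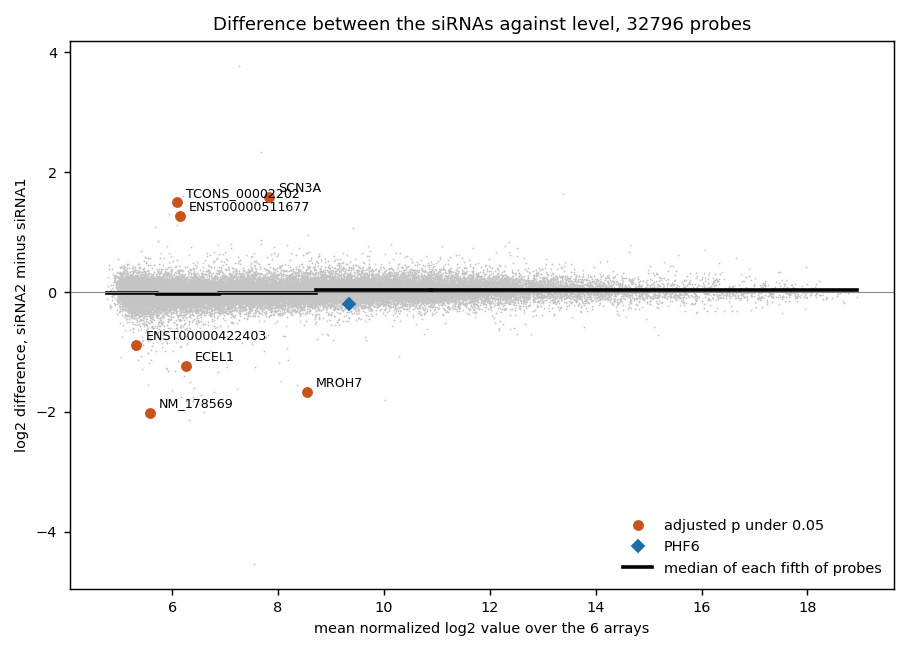
Log2 difference siRNA2 minus siRNA1 (vertical) against the mean normalized log2 value over the 6 arrays (horizontal) for the 32796 probes tested. Orange points are the 7 probes with an adjusted p under 0.05, the blue diamond is *PHF6*, and black lines mark the median difference in 5 groups of probes of rising level, from -0.023 in the dimmest to 0.038 in the brightest.

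The neighbours of *SCN3A* were looked at after its value was seen. *SCN2A*, the next protein-coding gene in the RefSeq order of chromosome 2 and the gene of a related sodium channel, read 7.83, 7.39 and 7.30 with siRNA1 and 8.49, 7.97 and 7.81 with siRNA2. Each pair thus had the higher value under siRNA2, while the control arrays (8.18, 8.15 and 7.70) overlapped with siRNA2. Its difference of 0.58 ± 0.09 (SE, n = 3 pairs) did not pass the threshold (adjusted p = 0.129). *SCN9A*, another sodium channel gene, differed by 0.22 and 0.18 on its 2 probes, and neither of these passed. *SCN1A* and *SCN7A* were not well above background on any of the 6 arrays. The tested neighbours of *ECEL1*, among them *ALPI* and *PRSS56*, differed by between -0.21 and -0.014.

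Just beyond the threshold stood further named genes, chosen by the lowest unadjusted p among probes with the same sign in all pairs and without overlap. Among those with lower values under siRNA2, *SYNPO*, an actin-binding protein, read 9.57, 9.15 and 8.67 with siRNA1 and 7.65, 7.35 and 7.72 with siRNA2, around control values of 8.73, 8.27 and 8.58. The difference was -1.55 ± 0.18 (SE, n = 3 pairs; adjusted p = 0.0777). Without the replicate 3 pair it was -1.86 and passed.

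*RELB*, an NF-kB subunit of the non-canonical pathway, read 6.02, 6.01 and 5.93 with siRNA1 and 5.15, 5.45 and 4.94 with siRNA2. Its siRNA2 values overlapped with the control arrays (5.04, 5.51 and 5.12), and the probe was well above background on 2 of 3 siRNA2 arrays. The difference was -0.81 ± 0.11 (SE, n = 3 pairs; adjusted p = 0.117). Other genes with lower values were *SLC5A10*, a sugar transporter (-0.85), *KRTAP5-5*, a keratin-associated protein (-0.63), and the olfactory receptors *OR1N1* (-0.62) and *OR9A2* (-0.60), with adjusted p between 0.125 and 0.129. All 4 were dim. A second probe differed by 0.11 for *SLC5A10* and by -0.12 for *KRTAP5-5*.

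Among genes with higher values under siRNA2, *HMGA2*, an architectural chromatin protein of fetal and tumour cells, read 12.61, 12.46 and 12.65 with siRNA1 and 14.25, 14.81 and 13.58 with siRNA2. The control arrays were in between, at 13.17, 12.83 and 13.23. The difference of 1.64 ± 0.22 (SE, n = 3 pairs; adjusted p = 0.117) was seen on its brightest probe, whereas the other 2 probes of the gene differed by 0.084 and -0.022. *XPOT*, the exporter of transfer RNAs from the nucleus, read 10.98, 10.60 and 10.56 with siRNA1 and 12.03, 11.38 and 11.03 with siRNA2, a difference of 0.77 ± 0.12 (SE, n = 3 pairs; adjusted p = 0.129).

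*NR1D2*, the circadian repressor REV-ERB beta, was the one gene of this group with a second probe in the same direction at an unadjusted p under 0.05. Its brighter probe read 7.86, 7.91 and 8.01 with siRNA1 and 8.31, 8.73 and 8.68 with siRNA2, a difference of 0.65 ± 0.10 (SE, n = 3 pairs; adjusted p = 0.129), and the other probe differed by 0.42. Control values of 8.39, 8.86 and 8.67 overlapped with siRNA2. *SLC9A5*, a sodium-proton exchanger, differed by 0.80 on 1 probe and by 0.0051 on its brighter one. *PTPN14*, a tyrosine phosphatase, and *NDST3*, a heparan sulfate sulfotransferase, differed by 0.65 and 0.67. *NCF1*, a subunit of the phagocyte NADPH oxidase with near-identical pseudogenes, differed by 0.67 on the brightest of 4 probes and by between -0.086 and 0.097 on the others.

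Disagreement between probes of one gene was common. Of 3472 genes with several tested probes, 806 had a probe at an unadjusted p under 0.05. The other probes went the same way on average in 581 of these (72.1%), and another probe of the gene passed in the same direction in 82 (10.2%).

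The genes at the centre of the study, NOTCH1 pathway and lymphoid genes, had no called member among the 11 that could be tested (0.0207% of the 14495 genes tested were called), and 2 of the 11, *PTCRA* and *IL7R*, were higher with siRNA2 at an unadjusted p under 0.05. *PTCRA*, the pre-T cell receptor alpha chain, read 7.76, 7.94 and 7.39 with siRNA1 and 8.28, 8.36 and 7.64 with siRNA2. It was higher under siRNA2 in 3 of 3 pairs, by 0.40 ± 0.09 (SE, n = 3 pairs; adjusted p = 0.247), with control arrays at 8.62, 8.96 and 8.17. *IL7R*, the interleukin 7 receptor alpha chain, read 7.60, 9.04 and 9.13 with siRNA1 and 8.35, 9.38 and 9.25 with siRNA2. The difference was 0.41 ± 0.13 (SE, n = 3 pairs; adjusted p = 0.310). Its control arrays, at 7.04, 8.05 and 7.59, were below both reagents in each replicate number.

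*NOTCH1* differed by 0.12 ± 0.10 and 0.060 ± 0.09 on its 2 probes (SE, n = 3 pairs), and its target *DTX1*, a ubiquitin ligase of the pathway, by 0.17 ± 0.15. The 95% interval of the *NOTCH1* difference ran from -0.11 to 0.36 and that of *DTX1* from -0.19 to 0.52. *STAT5A*, *IKZF1*, *RAG1* and *GATA3* differed by between -0.0082 and 0.096, *VPREB3* by -0.12 and *TBX21* by -0.30. *HES4* and *CD200* were not bright enough to be tested.

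Gene lists for pathways and cell types were described by the number of their members on each side and by the median difference, with the brightest probe standing for a gene. For comparison, 56.2% of the 14495 genes were higher with siRNA2, their median difference was 0.022, and 7.89% were higher and 4.19% lower at an unadjusted p under 0.05. No member of any list passed at an adjusted p under 0.05 in limma, so the counts below are of unadjusted p. Members of a list are not independent of each other, and the lists received no test.

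The list farthest above 0 was that of ATF4 and the amino acid response, the genes for amino acid uptake and synthesis that cells induce when amino acids are short or proteins misfold. Of 26 tested genes 24 were higher with siRNA2, 8 of them and no lower one at an unadjusted p under 0.05, and the median was 0.20. None of the 26 lay without overlap between the groups, against 3.95% higher and 2.78% lower among all genes. Small differences were seen for *ASNS* (0.030) and *PHGDH* (0.0053), and the lowest member was *ATF3* (-0.097). *SLC7A11*, the cystine transporter, read 11.82, 10.72 and 9.71 with siRNA1 and 12.15, 11.22 and 10.32 with siRNA2, a difference of 0.48 ± 0.10 (SE, n = 3 pairs; adjusted p = 0.197). *MTHFD2*, a mitochondrial folate enzyme, differed by 0.39, *CEBPG* and *CEBPB*, partners of ATF4 in transcription, by 0.39 and 0.35, and *ATF4* itself by 0.25.

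Pair 2 weighed most in this list. Its median difference was 0.37, against 0.055 in pair 1 and 0.14 in pair 3, and without the replicate 2 pair the list's median was 0.12. *TRIB3*, a pseudokinase that ATF4 induces, was its highest member at 0.67, from differences of 0.22, 1.66 and 0.12 in the 3 pairs. *XPOT*, named above, is not in this list.

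Lists of fuel and lipid metabolism lay on the other side. Among hypoxia and glycolysis genes 24 of 29 were lower with siRNA2, 8 of them and no higher one at an unadjusted p under 0.05, with a median of -0.11 and medians of -0.17, -0.056 and -0.063 in the pairs. *PGK1*, a glycolytic kinase, read 16.64, 16.86 and 16.96 with siRNA1 and 16.22, 16.59 and 16.71 with siRNA2, a difference of -0.31 ± 0.09 (SE, n = 3 pairs; adjusted p = 0.285). *PKM*, pyruvate kinase, differed by -0.29 and *HK1* and *HK2*, hexokinases, by -0.27 and -0.25. *PKM* and *HK1* had no overlap between the groups. *ADM*, the peptide hormone adrenomedullin, was the lowest member at -0.52 ± 0.18, with differences of -0.89, -0.79 and 0.12 in the pairs.

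Cholesterol and fatty acid synthesis genes were lower in 19 of 27, 3 of them at an unadjusted p under 0.05, with a median of -0.099. They included the sterol reductase *DHCR7* (-0.28) and the squalene synthase *FDFT1* (-0.24). The list's median was -0.039 without the replicate 2 pair.

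**Figure D4:**
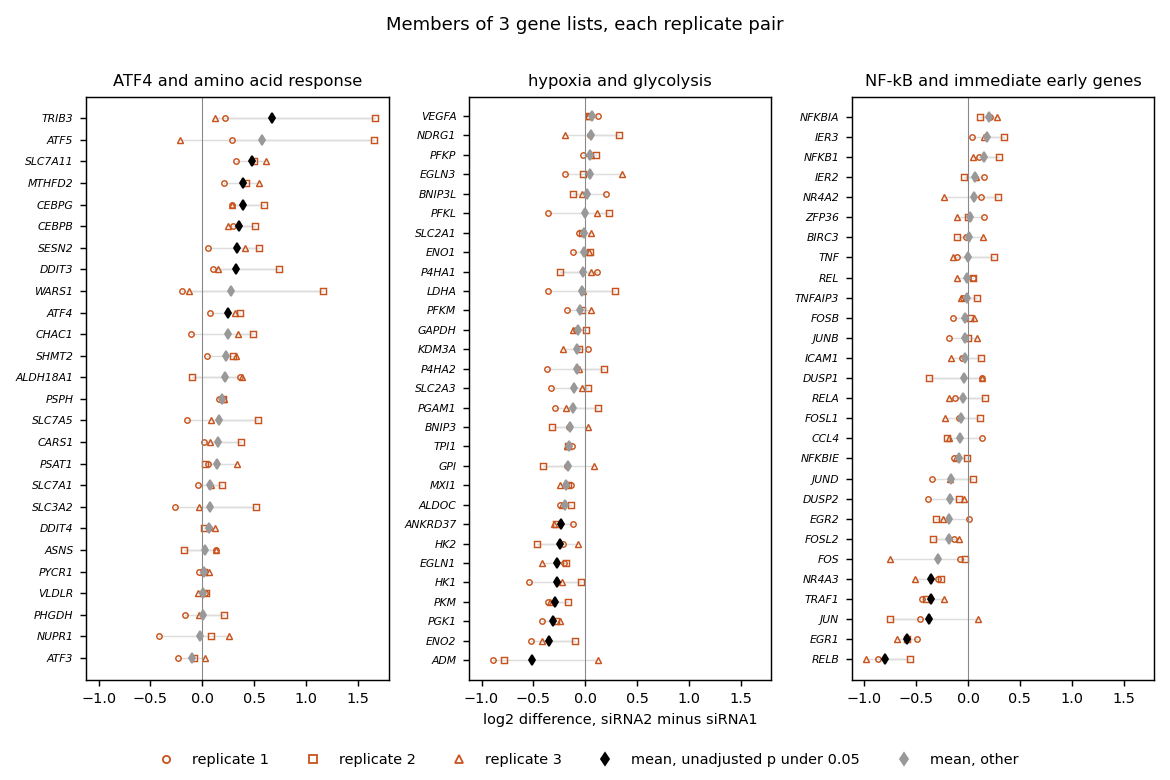
Log2 difference siRNA2 minus siRNA1 (horizontal) of each tested member of 3 gene lists, in each replicate pair (open orange symbols) and on average (diamonds, black where the unadjusted p was under 0.05). Most ATF4 members lie right of 0, with *TRIB3*, *ATF5* and *WARS1* far out in replicate 2 alone, and most hypoxia and glycolysis members lie left of 0.

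Of the NF-kB and immediate early genes 21 of 28 were lower with siRNA2, 5 of them at an unadjusted p under 0.05, and the median was -0.044. Besides *RELB* these were *EGR1*, *JUN*, *NR4A3* and *TRAF1*. The probes of *RELB*, *NR4A3* and *EGR1* were dim, with mean values of 5.58, 5.63 and 6.14, and *JUN* was higher with siRNA2 in pair 3 (0.096). *EGR1*, an immediate early transcription factor, read 6.36, 6.29 and 6.66 with siRNA1 and 5.87, 5.71 and 5.97 with siRNA2. All 3 siRNA2 values were below all siRNA1 values, with the control arrays at 6.10, 5.82 and 6.47, and the difference was -0.59 ± 0.09 (SE, n = 3 pairs; adjusted p = 0.129). *NFKBIA*, the inhibitor that NF-kB induces, was the highest member at 0.20. The list's median was -0.11 without the replicate 2 pair and -0.085 with the 75th percentile scaling.

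The 2 lists of the cell cycle had opposite signs. Genes of DNA replication and S phase were higher with siRNA2 in 24 of 30 (median 0.10). The 2 higher members at an unadjusted p under 0.05 were *CCNE2*, cyclin E2 (0.32), and *SLBP*, the histone stem-loop binding protein (0.26). *MCM4*, a subunit of the replicative helicase, was the 1 lower member at an unadjusted p under 0.05 and the lowest of the list at -0.27, with 13.66, 13.36 and 13.36 under siRNA1 and 13.36, 13.20 and 13.01 under siRNA2. Genes of mitosis and G2/M were lower in 23 of 29 (median -0.085), with 1, the mitotic kinase gene *PLK1* (-0.29), at an unadjusted p under 0.05. The S phase median was 0.053 with normexp and quantile normalization, and the mitosis median was -0.044 without the replicate 2 pair and 0.042 in pair 1.

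Sensors of foreign RNA and DNA and their signalling partners were higher with siRNA2 in 12 of 14 (median 0.11), 4 of them at an unadjusted p under 0.05. These were *TBK1* (0.35), the kinase downstream of the sensors, the adaptor *STING1* (0.31), the RNA sensor *IFIH1* (0.24) and *TLR3* (0.22), and the median was 0.053 with normexp and quantile normalization. *STING1* read 12.04, 12.04 and 11.92 with siRNA1 and 12.37, 12.41 and 12.14 with siRNA2, without overlap, and 12.26, 12.49 and 11.94 with the control.

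Interferon-induced genes were higher in 27 of 36 (median 0.070), 4 of them at an unadjusted p under 0.05. *IFI44*, whose product is induced by type I interferon, read 9.26, 9.09 and 8.96 with siRNA1 and 9.81, 9.27 and 9.73 with siRNA2, a difference of 0.50 ± 0.12 (SE, n = 3 pairs; adjusted p = 0.248). The control arrays for this gene, at 9.49, 9.72 and 9.19, overlapped with siRNA2. The others were *IFIT5* (0.31), *SAMD9* (0.31) and *IRF9* (0.27), while the classical interferon targets *ISG15* (0.068), *MX1* (0.12) and *IFIT1* (-0.12) had small differences.

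p53 target genes were higher with siRNA2 in 17 of 21 (median 0.14, or 0.092 without the replicate 2 pair and 0.085 when all probes per gene were averaged), 3 of them at an unadjusted p under 0.05. The pro-apoptotic *BBC3* read 11.03, 9.92 and 9.22 with siRNA1 and 11.37, 10.67 and 9.55 with siRNA2, a difference of 0.47 ± 0.11 (SE, n = 3 pairs; adjusted p = 0.246). *CCNG1*, cyclin G1, differed by 0.41 without overlap and *GADD45A*, a DNA damage response gene, by 0.25. *MDM2*, the p53 ubiquitin ligase, differed by -0.11, and *CDKN1A* was not bright enough to be tested.

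The partners of the PHF6 protein and the general small RNA machinery of the cell had more members with higher than with lower values under siRNA2. Of 20 genes of NuRD, the PAF1 elongation complex and *UBTF*, 17 were higher with siRNA2 (median 0.092), none of them at an unadjusted p under 0.05. The extremes were *LEO1*, a PAF1 complex subunit, at 0.29 and *CHD4*, the NuRD helicase, at -0.14. Of 15 small RNA machinery genes 13 were higher (median 0.074), with *TNRC6A*, an Argonaute-binding protein (0.27), at an unadjusted p under 0.05. *AGO2*, the Argonaute that cuts the target, differed by -0.034 and *DICER1*, which cuts precursors of small RNAs, by 0.18. The medians of these lists were 0.0445 and 0.0363 with normexp and quantile normalization, and 0.043 and 0.0316 without the replicate 2 pair.

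Lists of T cell biology had medians between 0.00088 and 0.11. T cell receptor and surface genes were split 11 to 11 around a median of 0.00088, whose sign depended on the normalization, and 3 were higher at an unadjusted p under 0.05. Of these 3, *CD28*, the costimulatory receptor, read 8.69, 8.86 and 9.62 with siRNA1 and 9.18, 9.61 and 9.79 with siRNA2, a difference of 0.47 ± 0.12 (SE, n = 3 pairs; adjusted p = 0.270). *PTPRC*, which encodes CD45, differed by 0.25 without overlap and *TRAT1*, a receptor-associated adaptor, by 0.32. NOTCH1 target genes were higher in 10 of 14 (median 0.11, and 0.029 without the replicate 2 pair). Their lowest member was *HES5*, a target that encodes a transcriptional repressor, at -0.34 on a dim probe (mean value 5.87).

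T-lineage transcription factors were higher in 14 of 23 with a median of 0.027, which went from -0.0082 when all probes per gene were averaged to 0.050 with the 75th percentile scaling. Their highest member was *TCF12*, an E protein, at 0.58, with 10.81, 11.42 and 10.66 under siRNA1 and 11.68, 11.48 and 11.46 under siRNA2. Pair 2 contributed little to this difference, although the groups did not overlap. In the list of the IL7 receptor, JAK and STAT5, 13 of 19 were higher (median 0.068, and 0.039 with normexp and quantile normalization), 3 of them at an unadjusted p under 0.05, namely *PIM1*, a kinase gene that STAT5 induces (0.41), *IL7R* and *SOCS2*, a feedback inhibitor (0.24). Of the 12 genes of V(D)J recombination 10 were higher (median 0.056). Their pair medians were 0.26, -0.24 and 0.19, and *PRKDC*, the kinase of end joining, differed by 0.62 ± 0.17 (SE, n = 3 pairs; adjusted p = 0.285).

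The last groups were T cell receptor signalling (22 genes, median 0.047), heat shock and the unfolded protein response (25 genes, median -9.1e-05) and ribosome biogenesis (30 genes, median 0.032). In these, 1 member was higher and none lower, 3 higher and 2 lower, and none higher and 2 lower at an unadjusted p under 0.05. Among their members, *TXK*, a Tec family kinase, differed by 0.29, the chaperone genes *DNAJB1* and *HSPB1* by -0.39 and -0.37, *EDEM1*, of protein disposal in the endoplasmic reticulum, by 0.33, and *RRP12*, of ribosome assembly, by -0.37.

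Markers of other blood and tissue cells showed no called member. Of 12 markers listed for each, 6 B lineage genes were tested (median -0.11), 8 myeloid (0.042), 8 erythroid and megakaryocyte (-0.15), 7 NK cell (-0.082) and 6 stroma and epithelium genes (-0.0026). *CTSG*, the protease cathepsin G of myeloid precursors, was the 1 marker at an unadjusted p under 0.05, with 10.74, 9.86 and 9.1 under siRNA1 and 11.17, 11.04 and 9.45 under siRNA2. The difference was 0.65 ± 0.16 (SE, n = 3 pairs; adjusted p = 0.250), and the defining markers *MS4A1*, *PAX5*, *HBB*, *NCAM1*, *COL1A1* and *EPCAM* were too dim to be tested.

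**Figure D5:**
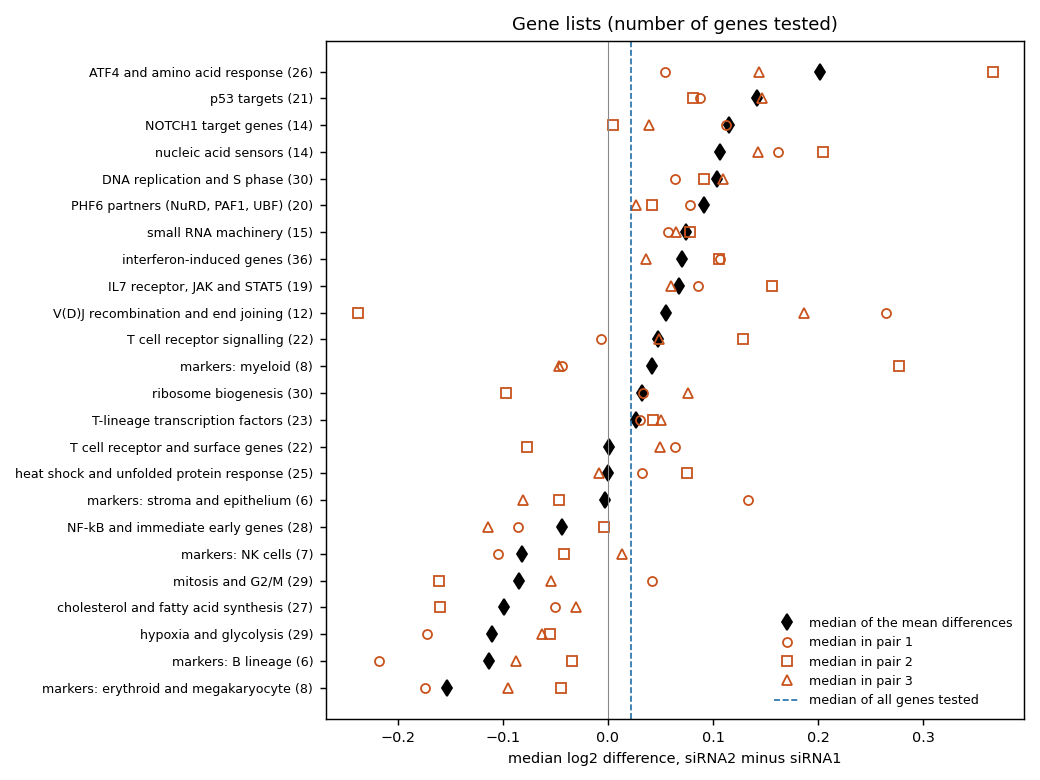
Median log2 difference siRNA2 minus siRNA1 (horizontal) of each gene list, with the number of genes tested in brackets, over the mean differences (black diamonds) and within each replicate pair (open orange symbols). The dashed line is the median of all 14495 genes, 0.022. ATF4 and amino acid response lies highest at 0.20, and several lists have pair medians on both sides of 0.

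Brightness and kind of probe went with the direction. Probes of the dimmest of 5 level groups were at an unadjusted p under 0.05 lower with siRNA2 in 453 and higher in 205 cases, and those of the second brightest group higher in 696 and lower in 251. lncRNA probes, of which 45.5% had a difference above 0, were lower without overlap in 389 (4.43%) and higher in 163 (1.86%) of 8781. Other probes had a difference above 0 in 52.7% of 24015. The part that brightness plays in the list medians was not tested.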

How the data were processed

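Total RNA of 9 electroporated ALL-SIL samples was hybridized in 1 colour (Cy3) to a custom Agilent array. The authors deposited scanner intensities per spot (Agilent Feature Extraction, version 10.5.1.1 per the file headers and 9.1 per the submitters' processing notes) and a table of log2 values normalized between arrays with VSN, and the intensities that entered VSN are not given in the sources used here. The deposited log2 values were used for the results and the intensities for the background flags and the other normalizations. Arrays were grouped by treatment label. Symbols came from matching 25728 of 34134 non-lncRNA probes to RefSeq transcripts (assembly GRCh38.p14), and the array design names an older build, so no coordinates are given. lncRNA probes keep their transcript names.

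The deposited table has 1 value per probe and array and was used as it stands, outlier spots included (0 of the 115 named probes had one). For the other normalizations, outlier spots (74 to 153 per array, and no spot was saturated) were left out where a probe had another spot, and spots of a probe were averaged. Probes well above background (on at least 0.5 of their spots) on at least 3 of the 6 arrays were tested with limma (version 3.58.1, R version 4.3.3; lmFit and eBayes, two-sided, replicate number as a block, Benjamini-Hochberg over 32796 probes, threshold 0.05). The fit had 2 residual and 5.99 prior degrees of freedom, and the median moderated standard error was 0.097. Every SE given is of this moderated kind. The script was tested on simulated data. Same-numbered arrays deviated together from their group means (r = 0.66, 0.51 and 0.75, against -0.55 to -0.09 for different numbers), and the pairing comes from the titles. The methods call the samples independent. Where cultures were not separate, p-values measure technical spread only. The number of arrays limits the precision.

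Named genes were *PHF6* and the study's genes, up to 10 called probes per direction, filled to 10 by the lowest unadjusted p among named probes with the same sign in 3 pairs and no overlap, and the extremes and low-p members of each list. Members and lists were chosen with earlier results of these data known. Of the low-p list members, a single gene is counted but not reported here. Alternatives were no replicate block, slide as block, normexp (offset 50) with quantile normalization, 75th percentile scaling, both other filters on dim probes, all 9 arrays in the fit, eBayes with trend and robust fitting, the mean of a gene's probes, and each replicate pair left out.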

Additional observations from a re-analysis of the deposited data

How the results depend on the processing

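The count of 7 called probes was not stable. It was 0 without the replicate block, with slide as a block, with normexp and quantile normalization, with 75th percentile scaling and without the filter on dim probes, where 687, 1702, 4158, 3073 and 5069 probes had an unadjusted p under 0.05. It was 54 with eBayes trend and robust fitting and ranged from 0 (without replicate 2, where 5203 had an unadjusted p under 0.05) to 156 (without replicate 3) when 1 pair was left out. It was 9 for probes well above background on all 6 arrays and 10 with all 9 arrays in the fit, with 5 and 6 of the 7 among them. The cause of these shifts was not tested. The *PHF6* difference stayed between -0.31 and -0.086, with adjusted p from 0.415 to 1. The share of probes with the same sign in 3 pairs, 36%, was 34.95% with normexp and quantile normalization, 35.37% with 75th percentile scaling, 32.89% without the filter and 37.3% on probes well above background everywhere. For the study's other genes and the called or lowest-p probes, 30 in all, 346 of 350 alternatives kept the sign, and members named from the gene lists alone were not recomputed singly. The exceptions were *DTX1* without replicate 2 (-0.082, with a range of -0.082 to 0.35 over the pairs left out), *RAG1* without replicate 1 (-0.10, range -0.10 to 0.20) and *GATA3* without replicate 1 (0.0039) and without replicate 2 (0.059, range -0.088 to 0.059). Signal near background limits the dimmest probes.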

Other observations

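Many of the largest differences between the reagents came from single arrays. Of 53 probes with a mean difference of at least 1 log2 unit, 12 were higher and 41 lower with siRNA2 and 25 were lncRNA probes. In 17 of the 53, and in 12 of the 15 with the largest difference, 1 array stood at least 4 log2 units from the median of the other 5. The scanner software had marked the spot on that array as an outlier for 7 of these 17 probes, each of which has 1 spot per array. *OR2T1*, an olfactory receptor gene, read 18.36 on siRNA1 replicate 1 and between 5.17 and 5.57 on the other 5 arrays, and *GZMH*, a granzyme, read 10.68 on siRNA1 replicate 2 and between 5.32 and 5.79 on the others.

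The lncRNA TCONS_00011496, chosen after its values were seen, had a large difference in all pairs that was smaller in pair 3 (3.28, 3.06 and 0.70). It read 5.11, 5.79 and 8.60 with siRNA1, 8.39, 8.85 and 9.29 with siRNA2 and 8.48, 9.40 and 9.01 with the control, and its mean difference of 2.34 did not pass (limma, adjusted p = 0.164). Similarly, the lncRNA ENST00000435542 (probe CUST_6282_PI427704219) had lower values with siRNA2 in each pair, with log2 differences of -1.11, -2.48 and -1.08, and was the 1 probe outside the 7 called with at least 1 log2 unit in the same direction in each pair.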
